A study of Drosophila melanogaster with 2 samples.

Results

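The genes described here carry several ADD1 peaks each along their bodies. They are lncRNA:CR44357, CG1677, Tet, jing, mbl, Dys, CG14434, Rtnl1, tna and ush, 10 of 18277 annotated genes. They were chosen by a measured value, the number of optimal summits (the highest point of each peak on the authors' final list) between the annotated start and end of the gene, which had to be 6 or more. That count is therefore a description and carries no test. ADD1, also called CG8290, was followed by ChIP-seq. The material was whole embryos of Drosophila melanogaster aged 0 to 14 hours, of both sexes pooled, from a transgenic line in which the protein carries GFP at its C terminus. Chromatin was sonicated to 200 to 800 bp. There was 1 group of 2 biological replicates, numbered 2 and 3, and no control sample was analysed here, so signal that would also arise without the tag could not be subtracted. The free description of both samples calls them input control, while their antibody label names CG8290, and they were treated as ChIP. Whole embryos mix all cell types, so a peak cannot be assigned to one of them. The final list held 2478 peaks from the pooled data, and each replicate and the pool had a list of 30000 ranked regions. Read depth is unknown, and the 95% exact (Clopper-Pearson) intervals below cover the counting of summits only.

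ADD1 carries an ADD domain and is known to associate with heterochromatin protein 1, the protein that reads methylated histone H3 in silent chromatin. Long developmental genes of Drosophila often hold their enhancers and alternative promoters inside large introns, so that a peak in a gene body can belong to an enhancer, to an internal start site or to a gene nested in the intron. The named members have unlike jobs. The zinc-finger proteins encoded by ush, a cofactor of GATA factors, and jing, a relative of the PRC2 partner AEBP2, act on transcription, and tna encodes a trithorax-group protein with an SP-RING domain. Tet encodes a ten-eleven translocation dioxygenase, and mbl the splicing regulator Muscleblind. Dys encodes dystrophin, which ties the cytoskeleton to the cell membrane, and Rtnl1 encodes a reticulon that shapes the endoplasmic reticulum.

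The sequences below show what lay under the strongest summit that was more than 500 bp from every annotated start site and outside every exon, since such summits made up most of the peaks. They are given for 8 of the 10 genes; no window is shown for jing and mbl. Each is 121 bases of the plus strand of dm6 (RefSeq), 60 bases to either side of the summit. Capitals mark a match to a motif searched, CACACACA in Tet and GAGAGA in tna, where it reads TCTCTC on this strand. The windows are chrX:7324927-7325047 for CG1677 and lncRNA:CR44357 together, chr3L:2800530-2800650 for Tet, chr3R:19584882-19585002 for Dys, chrX:6866120-6866240 for CG14434, chr2L:5001387-5001507 for Rtnl1, chr3L:10856686-10856806 for tna and chr2L:480991-481111 for ush.
CG1677: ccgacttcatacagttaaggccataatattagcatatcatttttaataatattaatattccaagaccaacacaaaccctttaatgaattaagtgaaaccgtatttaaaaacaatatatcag
Tet: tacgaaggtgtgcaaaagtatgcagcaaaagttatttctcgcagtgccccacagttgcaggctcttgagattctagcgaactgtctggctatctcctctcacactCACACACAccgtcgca
Dys: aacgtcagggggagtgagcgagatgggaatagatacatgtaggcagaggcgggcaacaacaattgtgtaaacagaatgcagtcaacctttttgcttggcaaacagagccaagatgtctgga
CG14434: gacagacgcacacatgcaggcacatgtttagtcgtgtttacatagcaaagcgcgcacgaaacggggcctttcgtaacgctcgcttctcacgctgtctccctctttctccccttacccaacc
Rtnl1: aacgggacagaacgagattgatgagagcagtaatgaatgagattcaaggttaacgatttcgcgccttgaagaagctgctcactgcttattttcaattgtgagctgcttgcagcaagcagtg
tna: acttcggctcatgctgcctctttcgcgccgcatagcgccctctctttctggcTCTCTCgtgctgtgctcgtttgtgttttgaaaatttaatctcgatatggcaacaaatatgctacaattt
ush: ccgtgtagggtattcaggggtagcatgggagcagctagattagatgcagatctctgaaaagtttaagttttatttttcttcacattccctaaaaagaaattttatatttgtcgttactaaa
These windows share no single make-up: 27.3% of the bases are G or C in the CG1677 window and 34.7% in that of ush, against 54.5% in that of CG14434.

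The 10 bodies held 65 distinct optimal summits. Counted gene by gene the sum is 74, because CG1677 lies inside lncRNA:CR44357 on the same strand and the 9 summits of CG1677 are also summits of the noncoding gene. lncRNA:CR44357 had 11 summits and CG1677 had 9. Tet, jing and mbl had 8 each, and Dys, CG14434, Rtnl1, tna and ush had 6 each. In all, 13 of 18277 genes, or 0.0711%, met the threshold. The others were Eip75B, the ecdysone-induced nuclear receptor gene, with 7 summits, and Hr4, another nuclear receptor gene, and InR, the insulin receptor gene, with 6 each. Just outside stood 10 genes with 5 summits: bun, fz2, JIL-1, lncRNA:CR43334, plh, Raf, RapGAP1, rdx, simj and tei. The densities of these neighbours overlapped those of the listed genes. JIL-1, which encodes a histone H3 kinase, had 0.346 summits per kb with 5 summits, close to Rtnl1 at 0.355 with 6, whereas tei at 0.0396 lay below Dys at 0.0441.

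**Figure D1:**
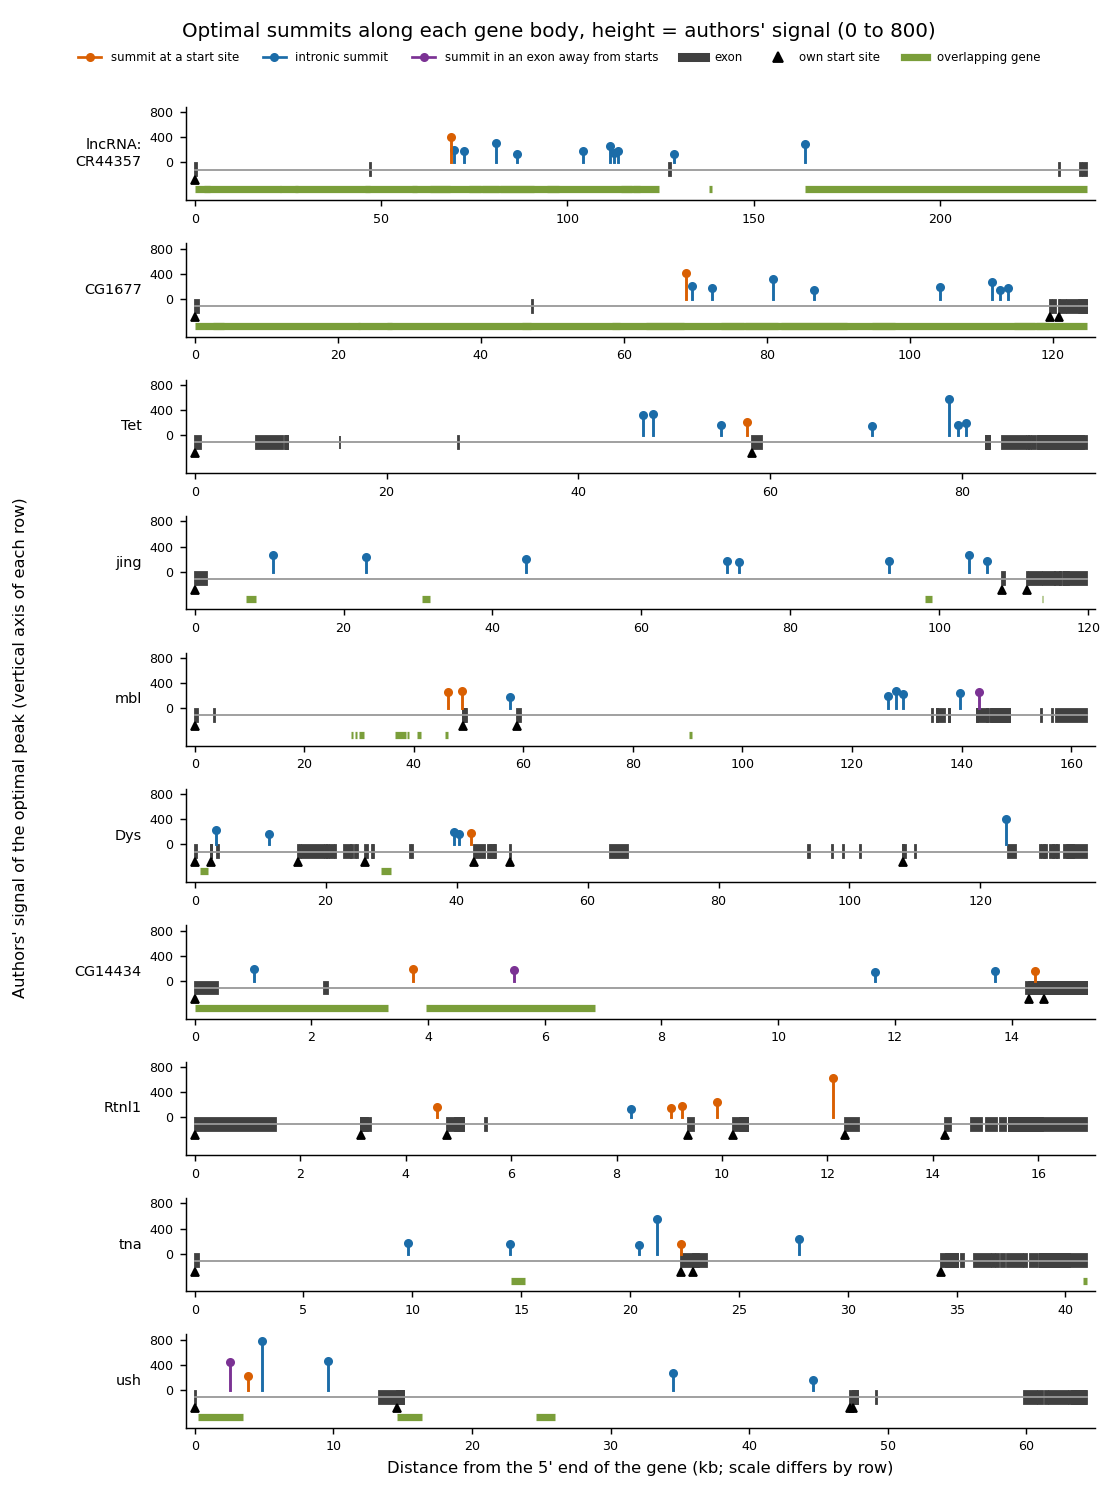
Positions of the optimal summits along each of the 10 genes, with distance from the 5′ end in kb on the horizontal axis (scale differs by row) and the authors' signal as stem height. Blue stems (introns) prevail in most rows, while in Rtnl1 5 of 6 stand at the gene's own start sites.

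The strongest of the 65 summits belonged to the transcriptional cofactor gene ush (FBgn0003963, 2L 476220 to 540560, plus strand, 64.3 kb). This summit, at position 481051, had a signal of 788, rank 28 of the optimal list, and stood in an intron 4.83 kb from the 5′ end. It was 1363 bp from the nearest start site of any gene and 4831 bp from the nearest of ush. Its region ranked 27 in replicate 2 and 25 in replicate 3. The replicates thus placed it alike, whereas the intronic summit at 485863 (signal 463) ranked 243 in replicate 2 and 68 in replicate 3. A summit at 478799 (signal 443) lay in a 5′ untranslated exon of cbt, which encodes the zinc-finger factor Cabut and is nested in the first intron, and the summit at 480051 (226) lay 363 bp from a start of cbt. These 4 summits lay 2.58 to 9.64 kb from the gene's 5′ end, and the last 2 stood alone at 510732 (271) and 520849 (168). All 6 ush summits overlapped the strongest 2478 regions of both replicates, and their median signal of 357 was the highest among the 10 genes.

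In tna (FBgn0026160, 3L 10835528 to 10876496, plus strand, 41.0 kb) 1 summit stood far above the rest. The intronic summit at 10856746 had a signal of 553, rank 70 of the optimal list, 71 in replicate 2 and 78 in replicate 3. It stood 1143 bp before an internal start of tna, and the summit at that start, 7 bp from it, had a signal of only 148. The other tna summits had signals of 143 to 240, and 3 of 6 reached the strongest regions of both replicates, the lowest share of the 10 genes. The tna summit at 10849993 ranked 1278 in replicate 2 and 4819 in replicate 3. All 6 lay in the first intron of the longest transcript, which is 34.3 kb long.

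The summits of jing (FBgn0086655, 2R 6502006 to 6621792, plus strand, 120 kb) were widely spaced. All 8 were intronic, none was within 500 bp of any start site, and all lay in the first intron of 110 kb, which takes 92.2% of the body. Their signals ran from 158 to 270, and neighbouring summits were a median of 12489 bp apart, the widest spacing of the 10 genes. The strongest, at 6512468, ranked 762 in replicate 2 and 386 in replicate 3. That at 6606027 ranked 1374 and 291, and 6 of 8 reached the strongest regions of both replicates. Thus no jing summit matched the leading summits of ush or tna.

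Tet (FBgn0263392, 3L 2786207 to 2879158, minus strand, 93.0 kb) held its 8 summits in the fourth intron, 54.9 kb long, and the first 46.7 kb of the gene from its 5′ end held none. The strongest, at 2800590 with a signal of 572 and rank 63, stood 18335 bp from the nearest start site of any gene and 20513 bp from the nearest of Tet. It ranked 75 in replicate 2 and 56 in replicate 3. Weaker summits stood nearby at 2798754 (191) and 2799573 (159), and another pair at 2831367 (333) and 2832448 (317) lay farther upstream. The summit at 2821584 (204) was 481 bp from an internal start of Tet and was better placed in replicate 2, at rank 625, than in replicate 3, at rank 2007.

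For mbl (FBgn0265487, 2R 17216549 to 17379376, plus strand, 163 kb) the signals were even, from 170 to 268, and all 8 summits reached the strongest regions of both replicates. The summit at 17265332 (signal 266) stood 186 bp from an internal start of mbl, and that at 17262751 (263) stood 412 bp from the start of lncRNA:CR45997, a noncoding gene. A stretch of 68963 bp without a summit separated 17274190 (170) from a group of 3 in the third intron, at 17343153 (186), 17344620 (268) and 17345818 (226). The summit at 17359689 (261) was the only one of the 65 in a 3′ untranslated region. Its region ranked 777 in replicate 2 and 488 in replicate 3.

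Dys (FBgn0260003, 3R 19461085 to 19597288, plus strand, 136 kb) had 1 strong summit, at 19584942 near its 3′ end, with a signal of 411 and rank 156. This summit was 1254 bp from the nearest start site of any gene and 15732 bp from the nearest of Dys. It ranked 185 in replicate 2 and 162 in replicate 3, and its position was identical in both. The other 5 had signals of 165 to 235 and lay in introns 1 and 15 of the longest transcript, 1 of them 492 bp from an internal start site of Dys. The longest intron, 47.7 kb, held none, and the longest stretch without a summit covered 59.9% of the body. A single strong summit beside weaker ones was thus also seen here, as in tna and Tet.

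Rtnl1 (FBgn0053113, 2L 4992808 to 5009720, minus strand, 16.9 kb) was the exception among the 10, because 5 of its 6 summits stood within 500 bp of its own start sites, of which it has 7. The strongest, at 4997617, had a signal of 630 and rank 42, with 38 as its rank in replicate 2 and 57 in replicate 3. The summit at 4999819 (246) ranked 363 in replicate 2 and 1756 in replicate 3, so the replicates differed there. The summits at 5000481 (180) and 5000681 (146) were 200 bp apart and corresponded to 1 region in each replicate, with ranks of 1434 and 1392. The intronic summit at 5001447, shown above, had the lowest signal of the 65, 135, and was outside the strongest regions of both replicates. In each replicate's list Rtnl1 held 4 of the strongest regions, below the threshold of 6.

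CG14434 (FBgn0029915, X 6851909 to 6867194, minus strand, 15.3 kb) was the shortest gene, with 0.393 summits per kb, the highest density of the 10. Its signals were low and close together, from 140 to 189, and no summit ranked above 1143 in the optimal list. The strongest, at 6866180, ranked 1597 in replicate 2 and 1073 in replicate 3. Of the others, 1 stood 103 bp from a start of CG14434, 1 stood 438 bp from the start of CG43736, and 1 lay in an exon of lncRNA:CR45531, both genes that overlap CG14434. Replicate 2 had 5 of its strongest regions in the gene and replicate 3 had 6.

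CG1677 (FBgn0029941, X 7281089 to 7405797, 125 kb) and lncRNA:CR44357 (FBgn0265457, X 7166451 to 7405797, 239 kb), both on the minus strand, end at the same upper coordinate. The shared summits fell in the second intron of each, and the first 68.7 kb from the common 5′ end held none. The strongest, at 7337050 (signal 410, rank 157), stood 302 bp from a start of CBP, a calcium-binding protein gene, with rank 153 in replicate 2 and rank 202 in replicate 3. That at 7324987 (312), shown above, lay in an intron shared with Dok, an adaptor gene, and ranked 326 and 379. A summit at 7319243 (140) lay inside Atg5, an autophagy gene, and ranked 1444 in replicate 2 but 4130 in replicate 3. Of the 2 summits outside CG1677, that at 7242113 (292) ranked 324 and 631. When each summit was given only to the shortest body that holds it, CG1677 kept 7 and lncRNA:CR44357 kept 2.

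Across the 65 summits, 48 were intronic, which is 73.8% (95% interval 61.5 to 84.0), and 14 were at start sites, which is 21.5% (12.3 to 33.5). Of the rest, 1 was in a 5′ untranslated region, 1 in a 3′ untranslated region and 1 in another exon. No summit of 65 was classed as in a coding exon, which allows a share of up to 5.52% by the same interval. Among other summits in gene bodies it was 16 of 1404, or 1.14%. Summits within 500 bp of a start site were not classed by exon, so these shares speak only for those farther away. Of the 14 at start sites, 10 were at a start of the listed gene itself. Among the 1404 other optimal summits inside gene bodies 44.8% were intronic and 47.4% were at start sites. Here and below, other summits include those of Eip75B, Hr4 and InR, unlisted genes that also met the threshold. Long bodies hold more intronic summits in general. Among the 341 other summits in bodies of 40 kb or more, 66.3% (61.0 to 71.3) were intronic, against 83.0% (70.2 to 91.9) of 53 in the listed genes of that length. The intervals of these shares overlap slightly, and for start sites, 26.1% (21.5 to 31.1) against 13.2% (5.48 to 25.3), they overlap too.

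**Figure D2:**
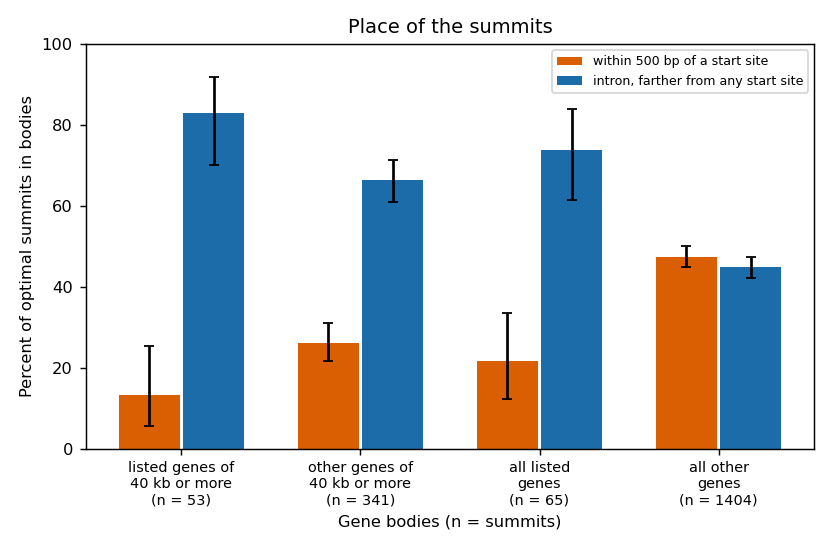
Percent of optimal summits at start sites and in introns, for the listed genes and all other gene bodies, with 95% exact binomial intervals as bars; n counts summits. Intronic summits make up 83.0% in listed genes of 40 kb or more and 66.3% in other genes of that length, with overlapping intervals.

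In 6 of the 10 genes, CG1677, Tet, jing, Rtnl1, tna and ush, all summits fell within 1 intron of the longest transcript, and in each of these it was the longest intron. That intron takes from 59.0% of the body in Tet to 92.2% in jing. Within bodies, neighbouring summits were a median of 3573 bp apart over 64 gaps, from 200 to 81643 bp, where the 8 gaps among the summits shared by CG1677 and lncRNA:CR44357 count once for each gene. Of these gaps, 23 were 2000 bp or less and 16 were over 10000 bp, so summits came both in close groups and alone. The intronic summits stood a median of 4417 bp from the nearest start site of any gene, against 2733 bp for the 629 other intronic summits and 4945 bp for the 226 of those in bodies of 40 kb or more.

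The member counts were then set beside those of genes of 0.8 to 1.2 times the same length. Because the counts chose the genes, these places in the order describe the choice and are not evidence for it. For lncRNA:CR44357, with 0.0460 summits per kb, there were only 7 like-length genes, of which 5 had no summit and bru3 had the most, 4. CG1677 (0.0722 per kb) led its 64 like-length genes, and the next were jing with 8, Eip75B with 7 and Dys with 6. Tet (0.0861 per kb) led 87, of which RapGAP1, bun and fz2 had 5 each. jing (0.0668 per kb) was passed by CG1677 alone among 62. For mbl (0.0491 per kb) none of 35 was higher, the next being Dys with 6, sick with 4 and Ptp61F with 3. Dys (0.0441 per kb) had the lowest place, with 4 of 57 genes denser.

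Among the shorter genes, none of 550 genes like CG14434 was denser, and 1 of 519 genes like Rtnl1 was, namely CG14434. Besides each other, the next genes in both sets were JIL-1 and lncRNA:CR43334 with 5 summits, and about 3 in 4 like-length genes had none, 75.6% and 75.9%. For tna (0.146 per kb) none of 289 was denser, and InR with 6, Raf with 5 and Btk with 4 came next. For ush (0.0933 per kb) none of 161 was, and Hr4 with 6, rdx with 5 and Pdp1 with 4 came next. Many long genes held no summit. Of the 92 genes over 100 kb, 45 had none, or 48.9%, while 6 had 6 or more.

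**Figure D3:**
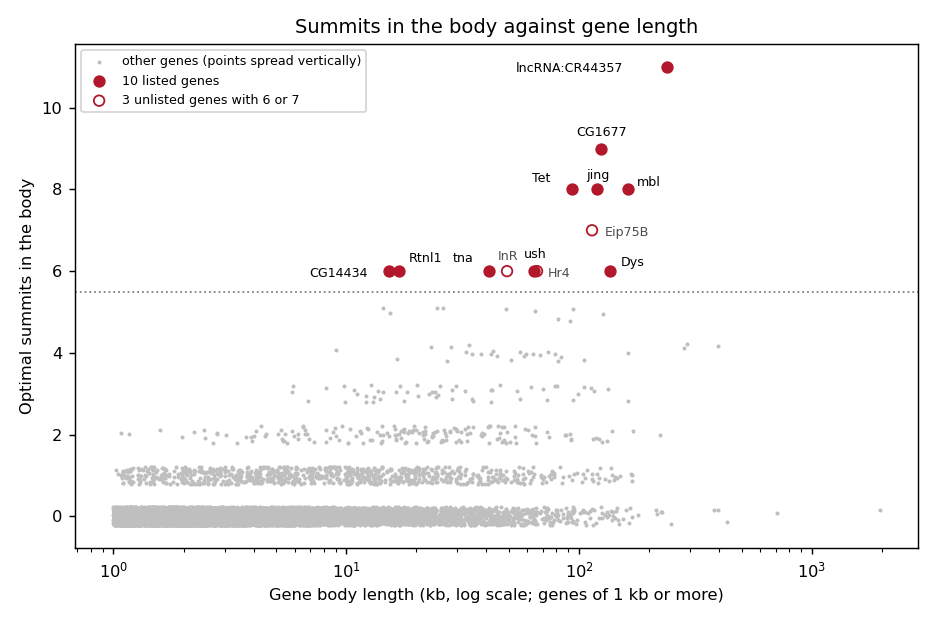
Optimal summits in the body against gene body length in kb on a log axis, 1 point per gene of 1 kb or more. The 10 listed genes (filled red) and the 3 unlisted ones with 6 or 7 (open) lie above the dotted threshold, and genes over 100 kb spread from 0 to 11 summits.

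**Figure D4:**
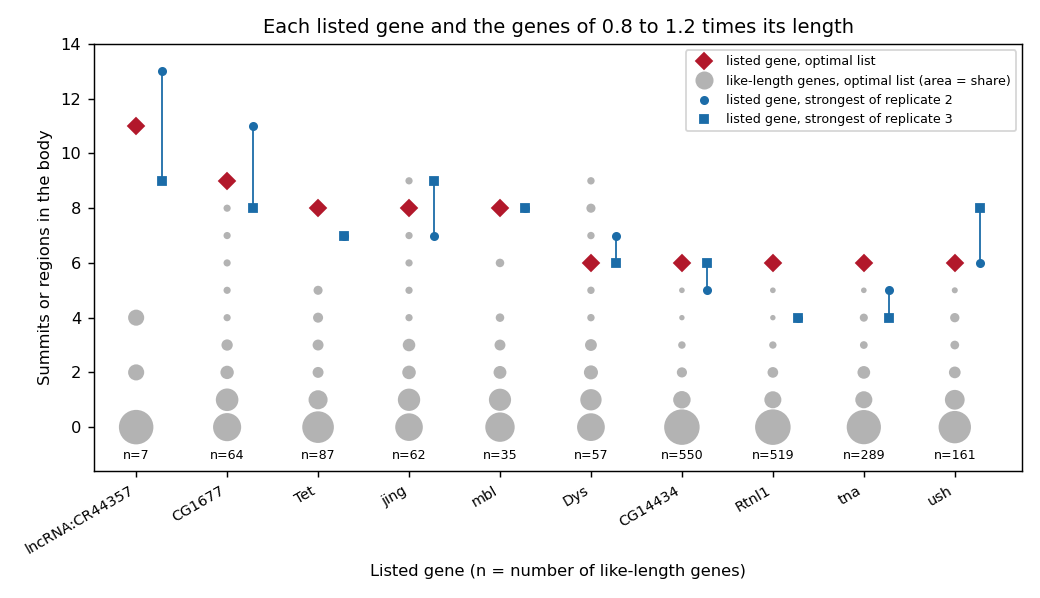
Summits in each listed gene (red diamond), in its like-length genes (grey, area proportional to their share) and the count of the strongest regions in each replicate (blue). The largest grey disc stands at 0 in every column, and Rtnl1 and tna fall below 6 in both replicates.

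The 30000 pooled regions, most of which did not reach the final list, show how much candidate signal the bodies held. Since the genes were selected on optimal summits, a larger difference in these than in pooled regions follows from the choice. The bodies of the 10 genes, 889 kb without double counting, held 7.31 optimal summits per 100 kb against 1.51 in the other gene bodies. They held 373 pooled regions, 42.0 per 100 kb, against 21.9 in the other gene bodies. Pooled regions include those that overlap optimal peaks, so the pooled density is not independent of the choice either. The number of optimal summits was 17.4% of the number of pooled regions in the listed genes, against 6.88% in the other gene bodies. This is a ratio of counts, not the share of pooled regions that overlap an optimal peak. Of the 373, 284 overlapped none. By pooled regions mbl, with 44, was passed in density by 10 of its 35 like-length genes and Dys, with 40, by 14 of 57. lncRNA:CR44357, with 77, still had none above it. The ratio of optimal summits to pooled regions was highest in Rtnl1, 46.2% with 13 pooled regions, and lowest in jing, 12.7% with 63.

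Each replicate alone gave similar counts for most of the genes. Among the strongest 2478 regions of replicate 2, 11 of 18277 genes (0.0602%) held 6 or more, and 7 of these were listed genes. For replicate 3 it was 15 genes (0.0821%), of which 8 were listed. The replicates are not independent of the rule, since the optimal list was drawn from their pool. lncRNA:CR44357 held 13 regions in replicate 2 and 9 in replicate 3, and CG1677 held 11 and 8. ush and jing went the other way, with 6 and 8 in ush and 7 and 9 in jing. Counts were the same in both replicates for mbl at 8, Tet at 7 and Rtnl1 at 4, and tna held 5 and 4.

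All 65 summits had an overlapping region in both replicate lists, as had nearly every other summit in a gene body, 1403 of 1404 in replicate 2 and 1404 in replicate 3. Of the 65, 58 (89.2%, against 83.1% of the others) overlapped the strongest 2478 of replicate 2 and 56 (86.2%, against 82.9%) those of replicate 3. Both were overlapped by 50, which is 76.9% (64.8 to 86.5) against 67.5% (64.9 to 69.9) of the other summits in gene bodies. Their ranks ran from 27 to 6243 in replicate 2, with a median of 1028, and from 25 to 4819 in replicate 3, with a median of 1168. The larger of a summit's 2 ranks was a median of 1.59 times the smaller and at most 4.84 times, and in 47 of 65 it was under 2 times. The summit moved by a median of 10 bp in replicate 2 and 8 bp in replicate 3 from its place in the optimal list. The highest rank, 6243, belonged to the lncRNA:CR44357 summit at 7277270, which also overlapped another, stronger region of replicate 2.

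**Figure D5:**
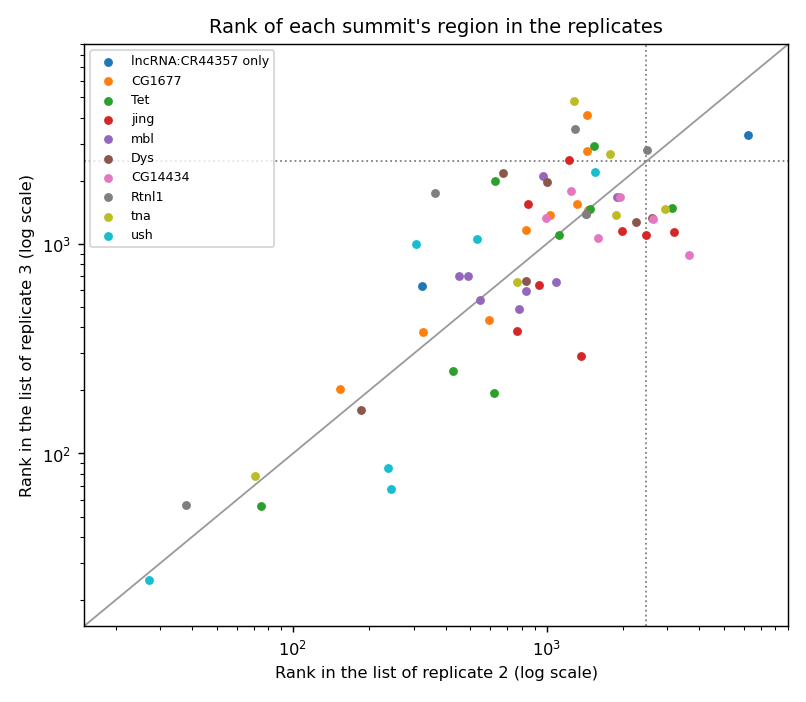
Rank of the region matching each of the 65 summits in replicate 2 and in replicate 3, both on log axes, coloured by gene; summits shared by CG1677 and lncRNA:CR44357 have the colour of CG1677. The diagonal marks equal ranks, dotted lines mark rank 2478, and no pair of ranks differs by more than 4.84 times.

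The height of the peaks was not part of the rule, though a peak had to reach the optimal list. Over the listed genes the median signal was 189 (range 135 to 788), against 181 over other summits in gene bodies and 183 over all other optimal summits. In bodies of 40 kb or more it was 204 over 53 summits of the listed genes and 177 over 341 others. These others include the summits of Eip75B, Hr4 and InR, with median signals of 231, 189 and 331. Of the 65, 37 ranked above the median of the optimal list. The first 100 of the 2478 peaks on that list included 4 of the 65, those of ush, Rtnl1, Tet and tna described above. Whether these counts differ from those of other summits was not tested. By gene, the median signal was highest in ush, at 357, and lowest in tna, at 160.

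Base composition was set beside that of other summits and then described by gene. In 201 bp around the summit the median G and C content was 40.3% over the 65 and 38.3% over all other optimal summits. By gene the median was lowest at CG1677, with 30.8%, and lncRNA:CR44357, with 31.3%, which share 9 summits. It was highest at jing and Dys, both 45.3%. These medians rest on only 6 to 11 summits each, and within mbl single summits ran from 30.8% to 55.7%. Whether the genes differ was not tested. For intronic summits the median was 43.0% in the listed genes and 39.3% elsewhere, while pooled regions in introns of the listed genes that overlap no optimal peak stood at 43.5%. In the same comparison with their own introns, repeat-masked bases made up a mean of 24.8% around the intronic summits and 18.2% around the other regions. In introns of other genes the mean was 19.1% around optimal summits and 18.3% around pooled regions that overlap no optimal peak. None of the 65 summits lay in an annotated transposable element, and only 2 of the 2413 other optimal summits did.

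Motifs of 8 letters or fewer, most of them known from chromatin factors, were looked for on either strand, no farther than 100 bp from each summit. A match describes the letters only. GAGAGA, bound by GAGA factor, was within reach of 12 of 65 summits, 18.5% (9.92 to 30.03), against 13.1% of the 2413 other optimal summits. Among intronic summits it was 18.8% against 17.2%, and within 50 bp of all summits it was 6.15% against 6.13%. GATAAG, of the kind that GATA factors bind, was present at 9 summits, 13.8% (6.53 to 24.7) against 12.1%, and among intronic summits at 14.6% against 12.7%. Of these 9, 1 was in ush, at 485863. CACACACA was also present at 9, 13.8% against 6.22%, and Tet had 3 of them, including its strongest summit. Among intronic summits alone the share of CACACACA was 12.5% (4.73 to 25.2) against 10.3%, a narrower gap than over all summits. In pooled regions of the same introns that overlap no optimal peak the shares were 13.7% for GAGAGA, 8.41% for GATAAG and 7.96% for CACACACA, all within the intervals of the intronic summits. CACGTG and CAGGTA occurred at 2 summits each, 3.08%, against 2.69% and 4.77% of other optimal summits. GGTCACAC occurred at 1, 1.54% against 3.23%, and TGACTCA at none, which allows up to 5.52%, against 1.82%. That 1 summit was intronic, 2.08% of 48 against 0.477% of other intronic summits. Of other start-site summits 5.07% held GGTCACAC. TATCGATA, bound by Dref, was present at 1 of the 65 summits, at 5.59% of other optimal summits and at 0.318% of other intronic ones. In all, 35 of the 65 summits held none of the 8 motifs, among them the strongest one, in ush. The same count was not made for other summits, so it does not set these genes apart.

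Genes of the same pathways or complexes as the listed genes were set beside them in 8 lists. Of their 61 genes, 17 had an optimal summit in the body, 27.9%, and 14 had one within 500 bp of a start site, 23.0%; none held 6 or more. Over all protein-coding genes 7.36% had an optimal summit in the body and 12.6% had one at a start site. Gene length and the number of start sites were not matched in this comparison. Of 5 GATA-factor genes, a family that includes the Ush partners pnr and srp, GATAd (highest signal 246) and grn (180) had a summit in the body and pnr, srp and GATAe had none. None of the 7 genes of the dystrophin complex, Dg, Dyb, Scgalpha, Scgbeta, Scgdelta, Syn1 and Syn2, had one, beside 6 in Dys. Of 11 RNA-binding splicing regulators set beside mbl, 8 had a summit in the body, led in signal by Rbfox1 (427, 3 summits), fne (362, 2 summits) and bru2 (257, 2 summits), and bru3 had 4 summits. These regulators cover 849 kb in all and held 1.77 summits per 100 kb of body. The other lists with a summit are shorter, from 22.9 kb in all for the ER-shaping protein genes to 83.2 kb for the GATA factors, and held 2.40 (GATA factors) to 8.74 (ER-shaping proteins) per 100 kb, each from 1 or 2 summits.

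In the remaining lists most genes held no summit. Among 5 ER-shaping protein genes ReepA alone had summits, 2 in number, with the highest at 199. Of 7 PRC2 genes, Su(z)12 (222) and E(z) (145), which encodes the histone methyltransferase, had 1 each. Of 7 genes of the SUMO pathway lwr, the SUMO-conjugating enzyme gene, had 1 (249). The body of lwr, from 540599 on 2L, lies just past the end of the listed gene ush, at 540560. Uba2 of the same list had a summit near a start but none in the body. Of 10 Brahma complex genes osa had 2 (243), while brm, Bap60 and Bap170 had a summit near a start but none in the body. Of 9 RNA methylation genes Hakai and Ythdf had 1 each, both with a signal of 137. No gene in these 8 lists reached more than the 4 summits of bru3.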

How the data were processed

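The authors deposited 4 region lists in dm6 coordinates: 1 for each replicate, 1 for both pooled and the optimal IDR-thresholded peaks. The deposited signal per region is the authors' value on an unstated scale and was used only within a list. Their −log10 q-values, also deposited, stayed unused. Which aligner, caller and IDR cutoff were applied is not given in the sources used here. Summits were placed in Ensembl release 115 gene bodies, with 5889 transposable elements left out; a summit within 500 bp of any start site was at a start site, and otherwise took its first class of exon or intron. A replicate's strongest regions were as many as the optimal list. Overlap meant 1 bp, and a rank is that of the overlapping region with the nearest summit. Python 3.11.15, pandas 2.3.3, numpy 2.4.6 and scipy 1.17.1 were used, and counting was tested on simulated positions. With 1 group of 2 replicates and no control sample analysed here, no test was made. The members, gene lists and motifs were chosen with earlier results of these data known. Named are the listed genes, genes overlapping their summits, those with 5 or 6 summits, the 3 like-length genes with most summits, and up to 4 of each related list by signal; partners without a summit and bru3 were added after their values were seen. The alternatives tried were other peak lists, positions, windows, gene bodies and like-length ranges, and, chosen after seeing the data, leaving out lncRNA:CR44357.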

Additional observations from a re-analysis of the deposited data

How the results depend on the processing

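Of 78 values recomputed under alternatives for the summary results, 66 were classed as close to those reported. This class was wide, so it does not show that the values were stable. It took in a fall from 10 genes to 7 without replicate 3. It also took in a median gap of 6189 bp without start-site summits, against 3573 bp reported. The interval around that reported gap ran from 2048 to 7099 bp. With peaks above the median of the optimal list only, 2 genes kept 6 or more summits and 37 summits were left, with 100% of these in both replicates, a median signal of 261 and a median gap of 7236 bp. With peaks shared by both replicates 6 genes had 6 or more, and with start-site summits left out 5 had. The strongest regions of 1 replicate alone gave 7 to 8 genes and 61 to 62 summits. A start-site window of 200 bp gave 7.69% at start sites and 87.7% in introns. The median percentile of density among like-length genes, not given above, was 100 for genes of 0.8 to 1.2 times the length. Because the counts chose the genes, it describes the choice. It was 98.3 for genes of 0.5 to 2 times the length and 96.4 by all pooled regions. Within 50 bp of the summit 14 summits, not 30, held a motif. Leaving out lncRNA:CR44357, chosen after seeing the data, left 63 summits in 9 genes, with a median gap of 3194 bp and the other summary results close to those reported. By gene, Rtnl1 fell from 6 summits to 1 without start sites and tna from 6 to 3 among shared peaks. Giving each summit to the shortest body left 7 genes with 6 or more. No value could be had for the median signal and the share in both replicates with single-replicate lists, for that share with shared peaks, or for class shares without start-site summits. No paired analysis was possible because there is 1 group. Depth is unknown, the optimal list pools both replicates, and no control sample was analysed here.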
